A study of Mus musculus with 6 samples.

Results

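The results concern 10 genes for ADAM and ADAMTS metalloproteases, 3 of the ADAM family (Adam12, Adam17 and Adam19) and 7 of the ADAMTS family (Adamts1, Adamts2, Adamts4, Adamts5, Adamts6, Adamts7 and Adamts12). They were chosen by name, with earlier results of these data known, and are 10 of the 54752 genes in the count table. All 10 were among the 14604 genes with enough counts to be tested. RNA-seq was done on NIH/3T3, a fibroblast line that was derived from mouse embryos, in 3 groups of 2 libraries each. The vehicle group received PBS. The TGF-β1 with DMSO group received TGF-β1 at 1 ng/ml and DMSO, and the TGF-β1 with BI6727 group received TGF-β1 at 1 ng/ml and BI6727, an inhibitor of the mitotic kinase PLK1, at 5 µM. All were treated for 72 h. The study used TGF-β1 on this line as a model of myofibroblast differentiation and asked what PLK1 inhibition does to it. By the labels, the vehicle group had neither TGF-β1 nor DMSO, so the effects of the 2 cannot be told apart in comparisons with it. The legend of the paper's volcano plot instead sets TGF-β1 against DMSO. All cells were 1 line.

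ADAM proteases are mostly membrane proteins that cut other membrane proteins near the cell surface and release their outer parts, a step called shedding. ADAMTS proteases are secreted and cut proteins of the matrix, such as the large proteoglycans and the propeptides of collagens. Both are made as inactive precursors and mostly become active once their propeptide is cut off. Many, but not all, of these enzymes are held in check by TIMP inhibitors. In fibroblasts both families take part in building and turning over the matrix.

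Both families bind a zinc ion through 3 histidines in the catalytic domain. The coding bases of that site are shown for all 10 genes because it is the feature that makes them 1 set and shows how alike the members are. Each line gives 33 bases of the coding strand, 5′ to 3′, from Gencode M21 transcripts of build GRCm38 (mm10), with the codons of the 3 histidines in capitals. Where the site lies on 2 exons, the coordinates include the intron between them.
Adam12 (chr7:133961158-133961190, minus strand, exon 11): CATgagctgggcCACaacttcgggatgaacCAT
Adam17 (chr12:21336732-21336764, minus strand, exon 12): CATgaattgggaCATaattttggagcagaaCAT
Adam19 (chr11:46125050-46125082, plus strand, exon 11): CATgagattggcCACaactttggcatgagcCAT
Adamts1 (chr16:85799191-85799545, minus strand, exons 3 and 4): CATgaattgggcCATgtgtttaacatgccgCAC
Adamts2 (chr11:50775403-50776134, plus strand, exons 7 and 8): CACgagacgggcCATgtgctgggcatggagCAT
Adamts4 (chr1:171253210-171253915, plus strand, exons 3 and 4): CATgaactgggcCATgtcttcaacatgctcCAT
Adamts5 (chr16:85878015-85887826, minus strand, exons 2 and 3): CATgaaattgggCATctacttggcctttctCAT
Adamts6 (chr13:104352847-104366809, plus strand, exons 8 and 9): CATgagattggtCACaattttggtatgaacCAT
Adamts7 (chr9:90179456-90180640, plus strand, exons 7 and 8): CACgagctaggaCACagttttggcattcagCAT
Adamts12 (chr15:11241529-11255564, plus strand, exons 7 and 8): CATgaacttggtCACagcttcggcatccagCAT

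The site was found 1 time in each of the 10 genes. In the 3 ADAM genes it lay within 1 exon, and in the 7 ADAMTS genes it was split over 2 exons. Between these stretches, Adam19 and Adamts6 were most alike, with 29 of 33 bases identical, and Adam12 and Adamts5 least alike, with 17 of 33. Reads could fall on other genes as well where stretches are shared. No 50-base window of Adamts1, Adamts5, Adamts6 or Adamts12 was found in a transcript of another gene, and the share was 0.678% for Adamts2, 1.17% for Adamts7, 2.56% for Adamts4, 3.24% for Adam12, 4.83% for Adam17 and 8.35% for Adam19. Exons of genes on the other strand overlapped 1.94% of the exonic length of Adamts7, 3.56% of Adamts4, 4.35% of Adam17 and 10.1% of Adam19. Whether the counting used strand was not given in the sources used here, so the reads of these overlaps cannot be told apart.

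The libraries held 18362378 to 24452153 counts on genes. Fibroblast markers summed to 7791 to 10426 normalized CPM over all 6 libraries (CPM, counts at a common library size, scaled by edgeR's TMM method). Vim was at 3907.5 to 5008.3 CPM and Fn1 at 1078.4 to 2645.6, while S100a4 was at 7.40 to 21.4 and Fap had at most 10 counts. At 0 counts throughout were Krt5 of 5 epithelial markers, Kdr and Emcn of 5 endothelial markers and Adgre1 of 5 blood and macrophage markers. So were Lep of 4 adipocyte markers and Myod1 and Myog of 4 muscle markers. Of the other blood and macrophage markers, Cd68 had 2.48 to 4.42 CPM and Csf1r 0.892 to 2.24, and neither was called. Of the 10 fibroblast markers, 9 were tested and Pdgfra was called lower with TGF-β1 and DMSO. The epithelial keratin Krt14 was called higher, at 0.152 and 0.178 normalized CPM in vehicle and 1.72 and 1.79 with DMSO (log2 fold change 3.36, adjusted p = 0.00457 by edgeR's quasi-likelihood test). The endothelial cadherin Cdh5 had 0 and 0.491 CPM in vehicle and 3.05 and 1.69 with DMSO and was not called (adjusted p = 0.0262). The summed epithelial markers (1 of 5 tested) lay at 0.354 to 0.491 normalized CPM in vehicle, 1.88 to 2.24 with DMSO and 0.818 to 1.65 with BI6727, and the summed endothelial markers (2 of 5 tested) at 0.303 to 0.892, 2.82 to 3.72 and 1.98 to 2.62. Summed blood and macrophage markers (2 of 5 tested) lay at 4.65 to 5.49 CPM in vehicle and 4.19 to 5.16 with DMSO. With BI6727 they lay at 4.13 to 5.01. The part of these markers in the results was not tested. The DMSO pair stood apart, with a chi-square of its counts of 55.4 per degree of freedom, against 6.05 for the vehicle pair and 5.23 for the BI6727 pair. Its replicates differed along gene length. Between DMSO replicate 2 and replicate 1, the median log2 difference was 0.42 in the shortest 1461 genes and -0.44 in the longest 1461, of 14604. The 10 protease genes have exonic lengths of 4810 to 10921 bases, all above the median of 3815 over tested genes. All 10 were lower in DMSO replicate 2 than in replicate 1, by log2 values of -0.88 to -0.36 with a median of -0.61, where the median of all tested genes was -0.02. After removal of each library's trend on length, all 10 were still lower, from -0.70 to -0.08 with a median of -0.40, where 51.1% of all tested genes were lower. The same difference had a median of 0.00 in the vehicle pair and in the BI6727 pair. The DMSO values of the 10 genes are therefore given for each library.

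In vehicle-treated cells, Adam17 had the highest level per length, 12.9 ± 0.171 RPKM (SD, n = 2; the same scaled counts divided by exonic length). Adamts7 followed at 11.7 ± 0.226, then Adam19 at 7.75 ± 1.02 and Adamts1 at 7.53 ± 0.746 RPKM, and these last 2 overlapped. Adamts2 lay at 5.97 ± 0.0924, Adamts5 at 3.15 ± 0.321 and Adamts4 at 2.20 ± 0.173 RPKM. The lowest members, all under 1 RPKM, were Adamts12 at 0.733 ± 0.101, Adam12 at 0.344 ± 0.0331 and Adamts6 at 0.260 ± 0.0200. All other neighbours in this order were apart in both libraries.

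With TGF-β1 and DMSO the order was a different one. Adamts7 was first at 10.2 ± 3.12 RPKM (SD, n = 2), followed by Adamts1 at 7.88 ± 2.21, Adam19 at 7.33 ± 1.85 and Adam17 at 7.30 ± 1.27, and each of these overlapped its neighbour. Adam12 came next at 4.97 ± 1.57 RPKM, overlapping Adamts4 at 4.52 ± 1.66. Adamts6 lay at 1.61 ± 0.309 and overlapped Adamts2 at 1.49 ± 0.626, and Adamts5 at 0.747 ± 0.169 overlapped Adamts12 at 0.726 ± 0.302.

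As a share of the summed RPKM of the 10 genes, which is a ratio within a library, Adam12 made up 0.608% and 0.701% in the vehicle libraries, 10.9% and 10.3% with DMSO and 11.7% and 10.3% with BI6727. The share of Adamts2 was 11.5% and 11.3% in vehicle, 3.44% and 2.78% with DMSO and 2.37% and 1.95% with BI6727. The shares of Adam12 in the 2 DMSO libraries thus lay close to each other although their levels did not. The summed RPKM itself was 52.7 and 52.4 in vehicle, 56.0 and 37.5 with DMSO and 44.8 and 46.1 with BI6727.

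**Figure D1:**
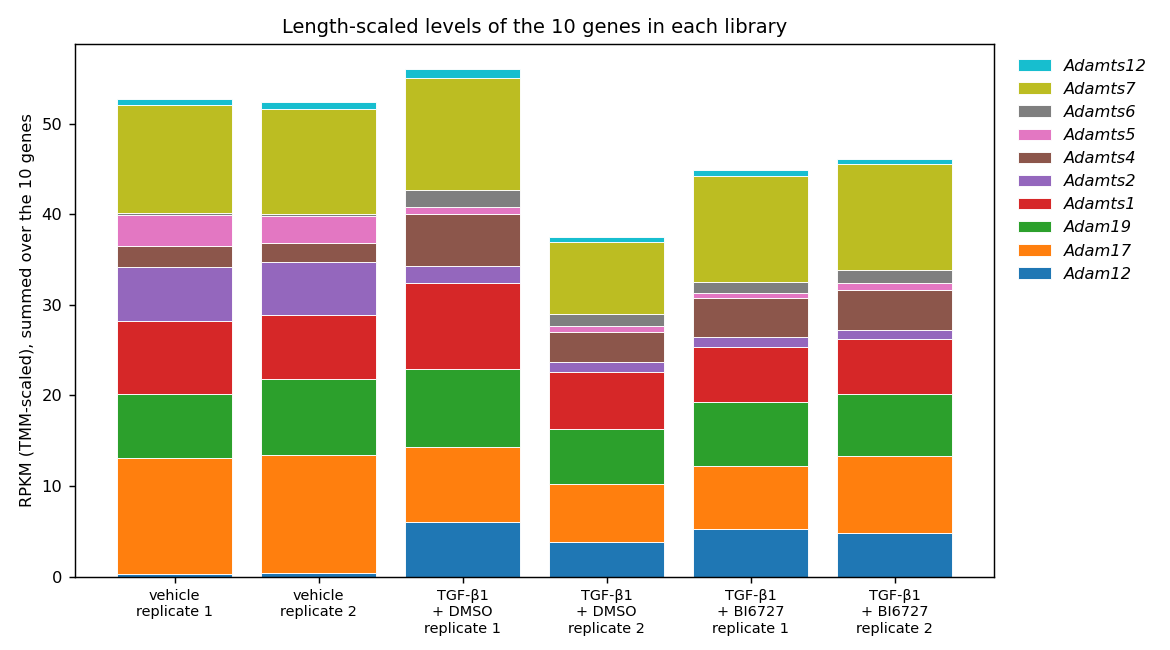
Stacked bars give the RPKM of each of the 10 genes (colours) in each of the 6 libraries, on a linear axis from 0. The Adam12 part is thin in both vehicle libraries and wide in the 4 TGF-β1 libraries, and the Adamts2 and Adamts5 parts shrink, while the DMSO replicates differ in height at 56.0 and 37.5 RPKM.

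TGF-β1 with DMSO was compared with vehicle to see which of these proteases changed with TGF-β1. Adam12 and Adamts6 rose and Adamts2 and Adamts5 fell, and the other 6 were not called. Calls needed a fold change above 2 and a p-value below 0.01 after Benjamini-Hochberg adjustment over all tested genes. So 2 of 10 members were called higher, where 2.75% of all tested genes were, and 2 of 10 lower, where 3.23% were. The median log2 fold change was -0.05 over the members and -0.01 over all tested genes. The labels and the methods give 2 replicates a group, and the methods also speak of 3 biological replicates of 2 groups, which the 6 libraries do not match. Whether the replicates were separate cultures was thus not clear, and p-values measure the spread between these libraries only. In bulk RNA, fewer cells that express a gene and less RNA per cell cannot be told apart. With offsets for gene length, the median was 0.07 over the members and 0.01 over all tested genes, and 5 members, these 4 and Adamts4, and 1011 of all 14604 tested genes were called, where 874 were without the offsets.

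Among the sheddases, Adam12 (ENSMUSG00000054555.11, chromosome 7, 133883199 to 134232146, minus strand), which cuts HB-EGF and IGF-binding proteins, had 3.39 and 3.88 normalized CPM in the vehicle libraries, 64.3 and 40.8 with DMSO and 55.7 and 50.4 with BI6727. Both vehicle libraries were low and all 4 TGF-β1 libraries were high, with no overlap. Adam12 rose 14.4-fold between vehicle and TGF-β1 with DMSO (95% interval 9.81 to 21.2), a log2 fold change of 3.85 (standard error 0.24, adjusted p = 2.89e-05 by edgeR's quasi-likelihood test). Its raw counts were 67 and 87 in the vehicle libraries and 868 to 1347 in the others. With any 1 library left out, its log2 fold change lay between 3.48 and 4.15.

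Adam17 (ENSMUSG00000052593.16, chromosome 12, 21323509 to 21373632, minus strand), the enzyme that sheds TNF and several EGF-receptor ligands, had 91.3 and 93.0 normalized CPM in vehicle, 58.6 and 45.8 with DMSO and 50.01 and 60.8 with BI6727. Every TGF-β1 library was below both vehicle libraries. The log2 fold change of Adam17 with DMSO was -0.82 (standard error 0.15, adjusted p = 0.0063 by edgeR's quasi-likelihood test), which is under a fold change of 2, so it was not called. Without DMSO replicate 1 it was -1.01 and without DMSO replicate 2 it was -0.64. Without vehicle replicate 1 or 2 it was -0.84 or -0.81. Such fits leave 1 library in a group, so only the size of the change is given.

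Adam19 (ENSMUSG00000011256.16, chromosome 11, 46055992 to 46147343, plus strand), which is needed for heart development and can cut neuregulin, had 50.04 and 60.3 normalized CPM in vehicle, 61.5 and 42.8 with DMSO and 49.95 and 49.3 with BI6727. The vehicle and DMSO libraries overlapped. The log2 fold change was -0.08 (95% interval -0.49 to 0.32).

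Adamts2 (ENSMUSG00000036545.8, chromosome 11, 50602084 to 50807573, plus strand), which removes the amino-terminal propeptide of fibrillar procollagens, had 56.4 and 55.1 normalized CPM in vehicle, 17.995 and 9.74 with DMSO and 9.91 and 8.38 with BI6727. The vehicle libraries were close together and above all the others. Its log2 fold change with DMSO was -2.01 (standard error 0.25, adjusted p = 0.000957 by edgeR's quasi-likelihood test), and the mean level went from 55.8 ± 0.862 to 13.9 ± 5.84 CPM (SD, n = 2). Without vehicle replicate 1 or 2 the log2 fold change was -1.99 or -2.03 and the adjusted p 0.0204 or 0.0170, both above 0.01, so it was then not called.

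Of the proteoglycan-cutting enzymes, Adamts5 fell, Adamts4 was at the edge of the threshold and Adamts1 was not called. Adamts5 (ENSMUSG00000022894.6, chromosome 16, 85856173 to 85901828, minus strand), a main aggrecan-cutting enzyme of cartilage, had 36.4 and 31.5 normalized CPM in vehicle, 9.36 and 6.77 with DMSO and 5.73 and 7.73 with BI6727. The 4 TGF-β1 libraries were all below both vehicle libraries. The log2 fold change of Adamts5 was -2.07 (standard error 0.21, adjusted p = 0.000334 by edgeR's quasi-likelihood test). Without vehicle replicate 1 it was -1.97 with an adjusted p of 0.0113, above 0.01, so it was then not called.

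Adamts4 (ENSMUSG00000006403.13, chromosome 1, 171250421 to 171260637, plus strand), also an aggrecan-cutting enzyme, had 11.2 and 9.99 normalized CPM in vehicle, 27.4 and 16.1 with DMSO and 21.1 and 21.7 with BI6727. All 4 TGF-β1 libraries were above both vehicle libraries. The log2 fold change of Adamts4 was 1.04 (standard error 0.24), above a fold change of 2, with an adjusted p of 0.0172 by edgeR's quasi-likelihood test, so it was not called. The call depends on the processing. By DESeq2 the log2 fold change was 1.05 with an adjusted p of 0.000311, and with offsets for gene length it was 1.08 with an adjusted p of 0.00197, both past the threshold. In edgeR's fit the log2 fold change was 1.38 without DMSO replicate 2 and 0.60 without DMSO replicate 1.

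Adamts1 (ENSMUSG00000022893.14, chromosome 16, 85793827 to 85803113, minus strand), which cuts aggrecan and versican, had 42.7 and 37.1 normalized CPM in vehicle, 50.1 and 33.5 with DMSO and 32.2 in each BI6727 library. The DMSO libraries lay on either side of vehicle. The log2 fold change of Adamts1 was 0.07 (95% interval -0.36 to 0.49). Adamts1 and Adamts5 lie on the same strand 53059 bases apart, with 1 annotated gene between them (4930556C24Rik), and only Adamts5 was called, though the difference between the 2 changes was not tested.

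Adamts6 (ENSMUSG00000046169.10, chromosome 13, 104287835 to 104496695, plus strand), which acts on microfibril proteins, had 1.92 and 2.14 normalized CPM in vehicle, 14.2 and 10.8 with DMSO and 9.42 and 11.7 with BI6727. It was the least abundant member in vehicle, with 38 and 48 counts, and all 4 TGF-β1 libraries were higher. Adamts6 rose 6.14-fold (95% interval 4.21 to 8.96), a log2 fold change of 2.62 (standard error 0.24, adjusted p = 0.000177 by edgeR's quasi-likelihood test).

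Adamts7 and Adamts12, a pair of similar enzymes that cut cartilage oligomeric matrix protein, were not called. Adamts7 (ENSMUSG00000032363.15, chromosome 9, 90163069 to 90208071, plus strand) had 74.5 and 72.5 normalized CPM in vehicle, 77.8 and 49.999 with DMSO and 73.5 and 73.3 with BI6727. DMSO replicate 2 was low and the other 5 libraries lay between 72.5 and 77.8. Its log2 fold change with DMSO was -0.20 (95% interval -0.62 to 0.22). Adamts12 (ENSMUSG00000047497.10, chromosome 15, 11064790 to 11349231, plus strand) had 7.23 and 8.79 normalized CPM in vehicle, 10.3 and 5.60 with DMSO and 6.50 and 6.21 with BI6727. The DMSO libraries spanned the vehicle ones. Its log2 fold change was -0.02 (95% interval -0.66 to 0.63).

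**Figure D2:**
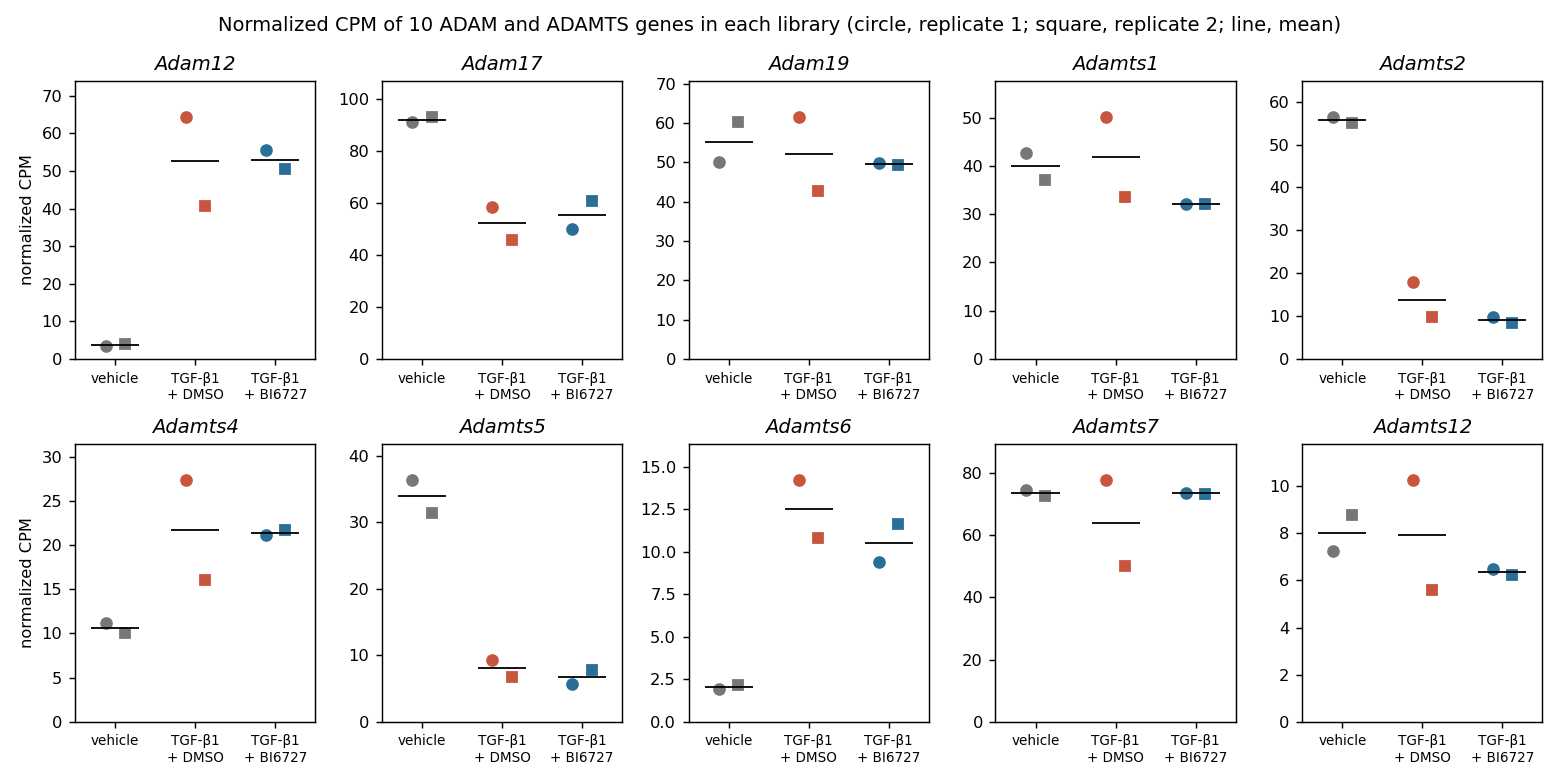
Each panel gives 1 gene, with normalized CPM on a linear axis from 0 and the 3 groups side by side (circles, replicate 1; squares, replicate 2; lines, means of 2). Adam12 and Adamts6 sit low in vehicle and high in the 4 TGF-β1 libraries, Adamts2 and Adamts5 show the opposite, and in all 10 panels DMSO replicate 2 is below DMSO replicate 1.

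Of the 10 members, 4 would not have been tested under the filter that the study's methods give, which asks for 10 CPM or more in over 3 samples. Adamts2 and Adamts6 reached 10 CPM in 3 libraries, Adamts5 in 2 and Adamts12 in 1. With that filter only Adam12 was called in this comparison, 1 member of the 6 tested, where 485 of all 9518 tested genes were called.

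The promoter of Adamts2 is shown because it is the single called member with a RefSeq promoter entry. In all, 5 of the 10 genes had one, with 7 promoters between them. The Adamts2 promoter covers 250 bases before to 50 after its start (chr11:50601835-50602134, GRCm38.p6, plus strand). It is printed 5′ to 3′ with GC boxes (GGGCGG, searched on both strands) in capitals, which read CCGCCC where the box is on the other strand.
Adamts2 promoter: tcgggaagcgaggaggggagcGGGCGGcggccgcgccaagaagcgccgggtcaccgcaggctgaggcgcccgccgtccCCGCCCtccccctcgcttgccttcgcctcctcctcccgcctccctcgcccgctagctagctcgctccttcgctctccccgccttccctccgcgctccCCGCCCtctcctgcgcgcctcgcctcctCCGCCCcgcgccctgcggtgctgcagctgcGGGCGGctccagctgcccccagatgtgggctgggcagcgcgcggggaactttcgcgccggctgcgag

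The Adamts2 promoter is 77.3% G and C, where the median of 32851 promoters of the same length is 52.7%, and holds 5 GC boxes. A GC box was found in 35.7% of all promoters, and in 4 of the 7 of these genes. The SMAD-box string CAGACA, found in 21.0% of all promoters, was in 0 of the 7. The AP-1 string TGACTCA, whose reverse complement TGAGTCA was counted with it, was in 5.202% of all promoters and here in 1 promoter of Adam19. The TATA-box string TATAAA was in 13.6% of all promoters and here in that of Adamts1. These matches describe letters in a window and were not tied to the levels above.

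The genes with the most similar profile were found for each called member as the 3 tested genes with the smallest root mean square (RMS) difference in log2 CPM over the 6 libraries, each centred on its own mean. For Adam12 they were Megf10, an engulfment receptor (RMS 0.18), Acsbg1, an acyl-CoA synthetase (0.23), and Bicdl2 (0.26). Megf10 went from 3.84 and 4.95 normalized CPM in vehicle to 59.8 and 38.1 with DMSO and 64.8 and 63.3 with BI6727. Bicdl2 had 0 counts in both vehicle libraries and at most 0.826 CPM, so its likeness rests on few counts. For Adamts6 the nearest were Inava (RMS 0.08), Gm19385 (0.13) and the ligand gene Wnt9a (0.14). Inava went from 5.66 and 6.16 CPM to 39.8 and 32.6 with DMSO and 31.0 and 34.6 with BI6727, and other genes overlap 32.0% of its exonic length.

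For Adamts2 the nearest profiles were those of Vegfd, a lymphatic growth factor (RMS 0.12), Gm2115 (0.16) and Olfml3, a secreted glycoprotein (0.17). Vegfd fell from 53.4 and 48.9 normalized CPM in vehicle to 16.7 and 10.3 with DMSO and lay at 9.36 and 9.44 with BI6727. It was thus lower with BI6727 than in either DMSO library, as were 17.7% of all tested genes, and was not called between BI6727 and DMSO. For Adamts5 they were Abcd2, a peroxisomal transporter (RMS 0.10), the clock gene Per2 (0.12) and Gm19605 (0.13). Abcd2 fell from 21.8 and 22.1 CPM to 6.21 and 5.08 with DMSO and lay at 3.86 and 5.19 with BI6727. These are likenesses over 6 libraries, 2 of which stood apart.

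Genes that work with these proteases were then counted in lists. Of 6 other ADAM proteases, 5 were tested and 0 were called between DMSO and vehicle. Of them Adam9 had 263.7 and 246.8 normalized CPM in vehicle and 144.5 and 114.3 with DMSO, a log2 fold change of -0.98 (adjusted p = 0.00123 by edgeR's quasi-likelihood test), just under a fold change of 2. Of 3 ADAMs without a protease active site, 1 was called: Adam23 fell from 131.6 and 115.4 to 16.6 and 16.3 CPM, by a log2 fold change of -2.91 (standard error 0.14, adjusted p = 9.61e-06). Of 12 other ADAMTS proteases, 5 were at 0 counts in every library and 3 were tested. One was called, Adamts9, at 2.27 and 2.72 CPM in vehicle and 0.430 and 0.0941 with DMSO, with at most 61 counts and other genes overlapping 11.99% of its exonic length. Of the ADAMTS-like proteins, which lack the protease domain, 3 of 7 were tested and 1 fell, Adamtsl4, from 14.8 and 17.0 to 6.68 and 5.22 CPM.

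Among 4 tested inhibitors, 1 rose and 1 fell. Timp1 rose from 184.2 and 193.9 to 410.2 and 565.6 normalized CPM (log2 fold change 1.37, adjusted p = 0.000504 by edgeR's quasi-likelihood test), and Timp2 fell from 988.8 and 1008.4 to 511.8 and 431.8 CPM (-1.08, adjusted p = 0.000642). Timp3, for the TIMP best known to act on ADAM and ADAMTS enzymes, was at 43.3 and 40.2 CPM in vehicle and 48.8 and 29.0 with DMSO and was not called. Furin, a convertase that cuts off the propeptides, rose from 141.4 and 134.2 to 346.9 and 256.7 CPM (log2 fold change 1.13), 1 of 2 convertases tested. The 3 genes for ADAM17 maturation and transport held 0 calls, and Rhbdf1, a partner of ADAM17 on its way to the surface, had 76.4 and 75.9 CPM in vehicle and 150.9 and 119.5 with DMSO, a log2 fold change of 0.83 (adjusted p = 0.00286).

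Of the substrates, 1 of 11 tested shed membrane proteins was called, Hbegf, which went from 7.78 and 9.46 to 68.3 and 76.2 normalized CPM (log2 fold change 3.06). Both Adam12 and Adam17 are known to shed its product, and of these Adam12 was called higher and Adam17 was not called. Of 7 tested matrix substrates, Thbs1, for thrombospondin, rose from 89.7 and 64.8 to 380.2 and 238.7 CPM (log2 fold change 2.00), and Dcn, for decorin, fell from 1215.1 and 956.1 to 311.9 and 244.9 (-1.96). The proteoglycan gene Vcan, cut by ADAMTS1, 4 and 5, was at 441.95 and 405.99 CPM in vehicle and 298.4 and 136.3 with DMSO and was not called. Of 8 procollagen genes and genes that process procollagen, Bmp1, which removes the other, carboxy-terminal propeptide, rose from 91.4 and 82.6 to 234.6 and 183.4 CPM (1.26), and its enhancer Pcolce fell from 557.8 and 475.5 to 244.6 and 221.1 (-1.15). So Adamts2 and Bmp1, which act on the 2 ends of procollagen, were called in opposite directions. Adamts14, whose product also cuts at the amino-terminal end, was tested among the other ADAMTS proteases and was not called. It had 16.13 and 15.97 CPM in vehicle, 14.3 and 10.4 with DMSO and 15.7 and 17.2 with BI6727. Its log2 fold change with DMSO was -0.38 (adjusted p = 0.176 by edgeR's quasi-likelihood test). The contrast thus covers Adamts2 and not every enzyme of that end.

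**Figure D3:**
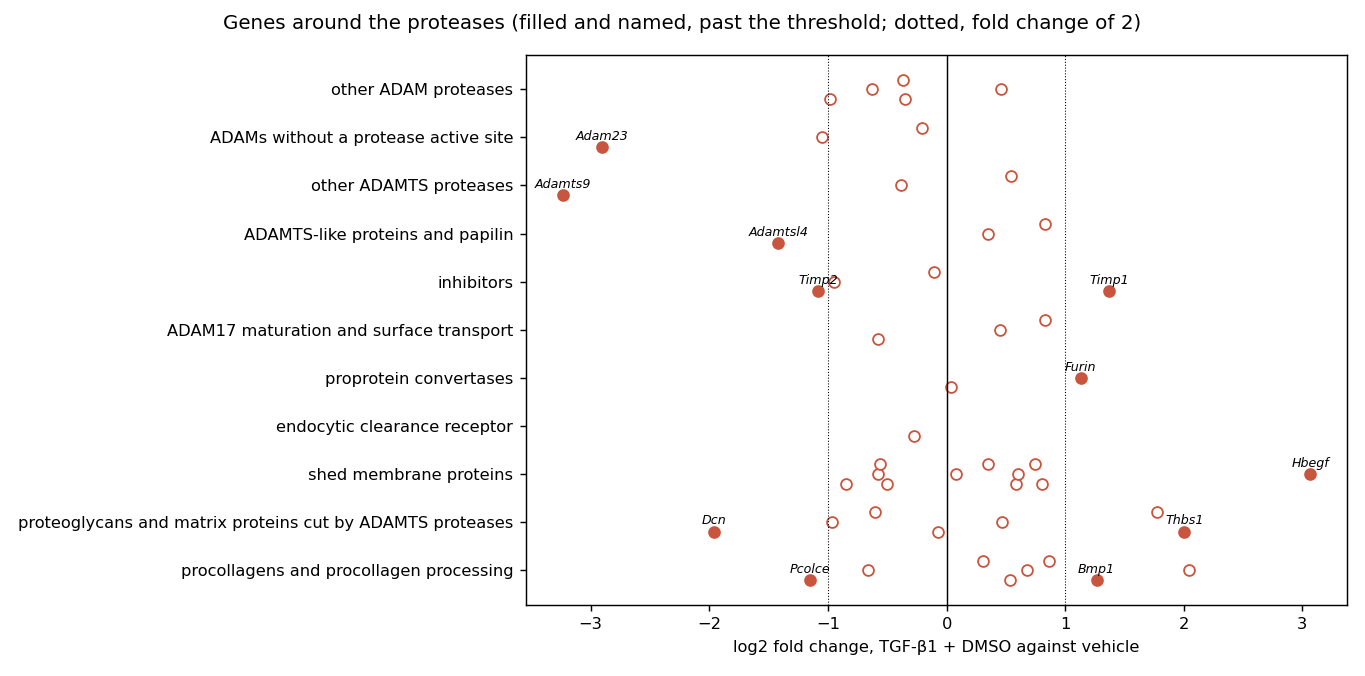
Each point is a tested gene of the lists named on the left, at its log2 fold change between TGF-β1 with DMSO and vehicle (dotted lines, a fold change of 2; filled and named, past the threshold). Most points are open and lie within the dotted lines, and Hbegf at 3.06 and Adamts9 at -3.23 lie farthest out among the filled ones.

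TGF-β1 with BI6727 was compared with TGF-β1 with DMSO to see whether the PLK1 inhibitor changed these proteases beside TGF-β1. No difference was called in any of the 10. The background was the same, since 0% of all 14604 tested genes were called by edgeR's quasi-likelihood test. At an unadjusted p below 0.05 there was 1 member of 10, where 7.13% of all genes were. By DESeq2 and by limma's voom with sample weights, 0 members were called as well, where these tools called 15 and 2 of all genes. The log2 fold changes of the members ran from -0.60 to 0.20 with a median of -0.16, and the median over all genes was 0.00.

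The member at an unadjusted p below 0.05 was Adamts2, at 17.995 and 9.74 normalized CPM with DMSO and 9.91 and 8.38 with BI6727. The groups overlapped, since DMSO replicate 2 was below BI6727 replicate 1. Its log2 fold change was -0.60 (95% interval -1.20 to -0.01, adjusted p = 0.696 by edgeR's quasi-likelihood test). It was -0.997 without DMSO replicate 2 and -0.10 without DMSO replicate 1. For Adamts1 the BI6727 libraries, both at 32.2 CPM, were below both DMSO libraries at 50.1 and 33.5. Its log2 fold change was -0.38 (95% interval -0.80 to 0.05, adjusted p = 0.717 by edgeR's quasi-likelihood test). It was the 1 member of 10 without overlap in the lower direction, where 17.7% of all genes were, and 0 were without overlap in the higher direction, where 17.4% were.

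For the other 3 members called against vehicle, the 95% intervals come from a fit in which all 3 groups share 1 spread. The DMSO pair varied more than the other pairs, so these intervals can be too narrow. For Adam12 the standard error was 0.20 in this fit and 0.22 with only the 2 groups compared. The second fit still pools the DMSO and BI6727 pairs, so it does not show the DMSO spread alone. For Adam12 replicate 2 differed from replicate 1 by a log2 value of -0.65 with DMSO and -0.14 with BI6727. Adam12 had a log2 fold change of 0.01 (95% interval -0.44 to 0.47), Adamts6 of -0.25 (-0.72 to 0.23) and Adamts5 of -0.25 (-0.76 to 0.25). None of these intervals reached a fold change of 2 in either direction. For Adam17 the value was 0.09 (-0.26 to 0.43) and for Adamts4 -0.02 (-0.55 to 0.51). Adam19 at -0.07, Adamts7 at 0.20 and Adamts12 at -0.32 had adjusted p-values of 0.849 to 0.945 by edgeR's quasi-likelihood test.

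The direction depended on the DMSO library. Set against DMSO replicate 1, the mean of the BI6727 libraries was lower for 10 of 10 members, with a median log2 difference of -0.40, and against DMSO replicate 2 it was lower for 4 of 10, with a median of 0.20. Over all tested genes this median was 0.00 against either. Voom's sample weights were 0.378 and 0.376 for the DMSO libraries and 1.52 to 1.80 for the others. In the lists of inhibitors, convertases, other family members and substrates, 0 genes were called between BI6727 and DMSO.

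**Figure D4:**
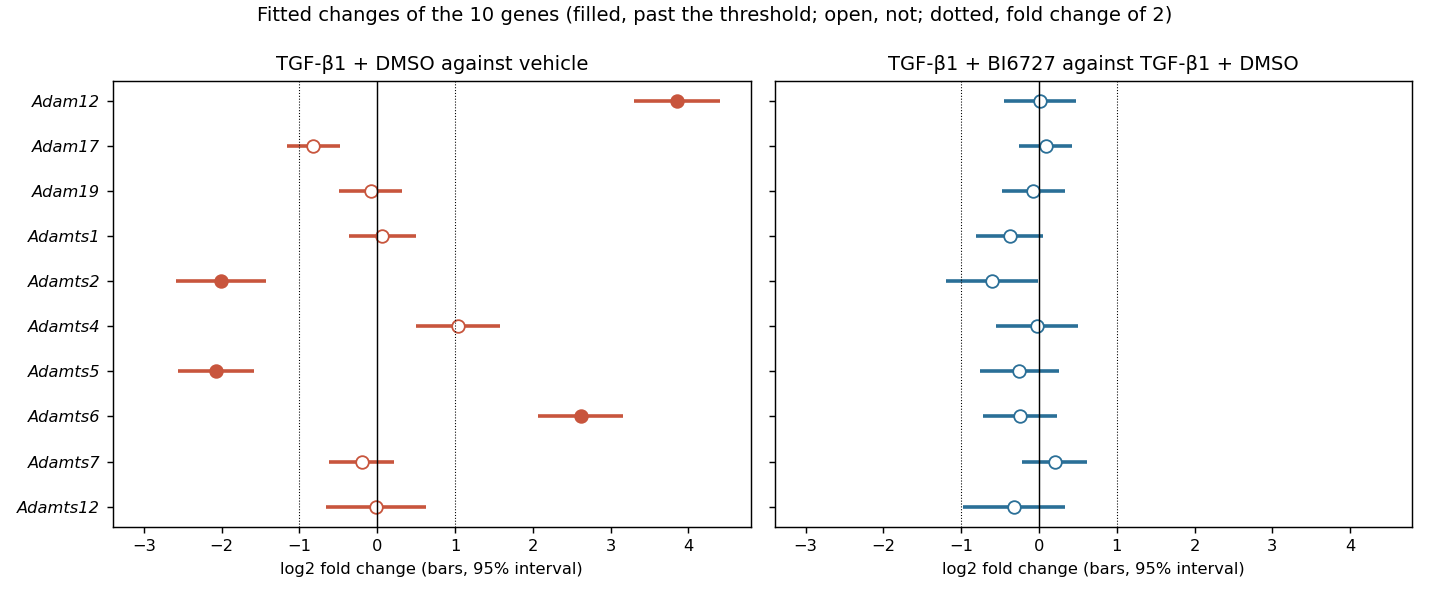
Points give the fitted log2 fold change of each gene with its 95% interval, for TGF-β1 with DMSO against vehicle (left) and TGF-β1 with BI6727 against TGF-β1 with DMSO (right), on 1 axis. On the left 4 points are filled, Adam12 at 3.85, Adamts6 at 2.62, Adamts2 at -2.01 and Adamts5 at -2.07, and on the right all are open and lie between -0.60 and 0.20.

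TGF-β1 with BI6727 was also set against vehicle, a comparison that shares its libraries with the other 2 and so is no separate evidence. Here 2 members were called higher, where 2.51% of all tested genes were, and 2 lower, where 3.71% were. They were the 4 called with DMSO. The log2 fold change was 3.86 for Adam12, 2.37 for Adamts6, -2.61 for Adamts2 and -2.32 for Adamts5, beside 3.85, 2.62, -2.01 and -2.07 with DMSO. Without vehicle replicate 1, the value of Adamts6 was 2.30 with an adjusted p of 0.0112 by edgeR's quasi-likelihood test, above 0.01, so it was then not called. Adam17 had -0.73 (adjusted p = 0.00982), again under a fold change of 2, and Adamts4 had 1.02 (adjusted p = 0.0177). Adamts4 was past the threshold in this comparison by DESeq2 (1.02, adjusted p = 0.000486) and voom (1.02, adjusted p = 0.000125). The level order with BI6727 was led by Adamts7 at 11.7 ± 0.0201 RPKM (SD, n = 2), Adam17 at 7.74 ± 1.06 and Adam19 at 6.98 ± 0.0602, and Adam12 lay at 5.02 ± 0.350, above Adamts4 at 4.45 ± 0.0764 in both libraries.

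**Figure D5:**
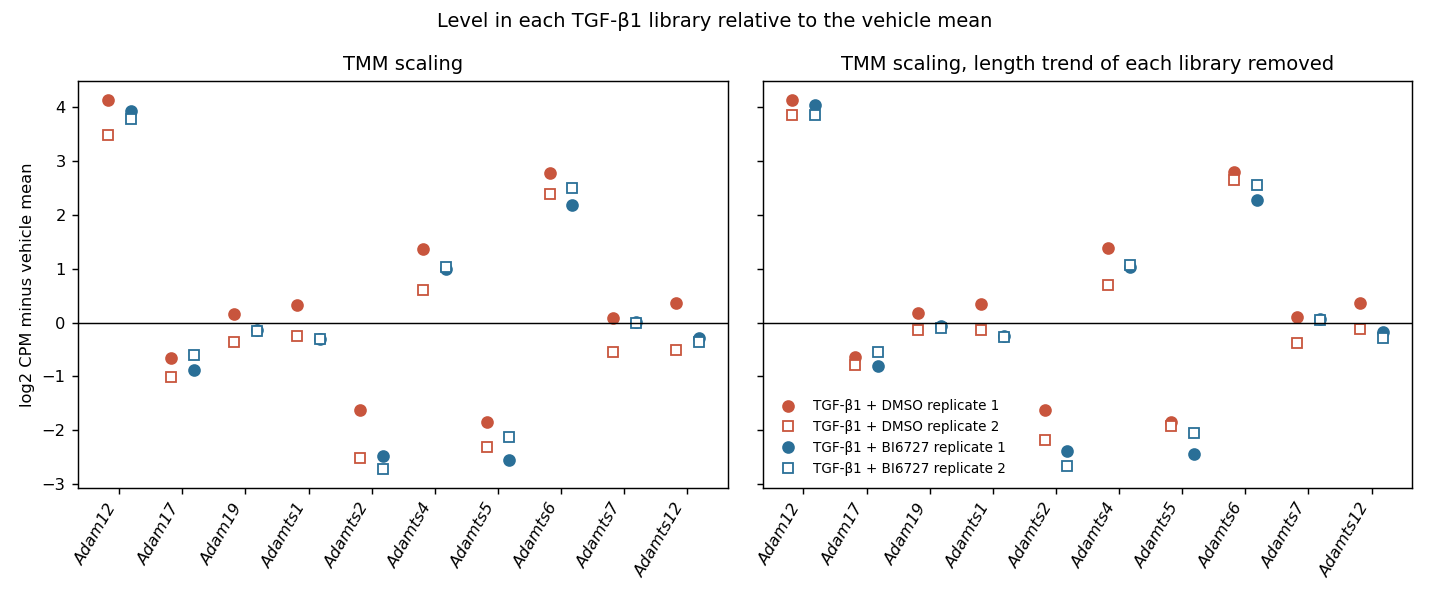
Each point is 1 library's log2 CPM minus the mean of the vehicle libraries, for the 10 genes (filled circles, replicate 1; open squares, replicate 2), before (left) and after (right) removal of each library's trend on gene length. For every gene the open DMSO square lies below the filled DMSO circle in both panels, and the 4 called genes keep their distance from 0 in all TGF-β1 libraries.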

How the data were processed

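RNA-seq of NIH/3T3 cells gave 6 libraries in 3 groups of 2, taken from the sample labels. Per the paper's methods and the submitters' processing notes, the authors mapped reads to mm10 with Subjunc (Subread 1.6.4), used featureCounts with the Gencode M20 annotation, and deposited raw counts per gene. From these counts, genes were kept by edgeR's filterByExpr (14604 of 54752), scaled by TMM and tested by quasi-likelihood with edgeR 4.0.16 in R 4.3.3 (1 fit of 6 libraries, 3 residual degrees of freedom, no covariate, Benjamini-Hochberg adjustment). The filter that the study's methods give, 10 CPM in more than 3 samples, removes 4 members and was an alternative. Other alternatives were DESeq2 1.42.0, limma 3.58.1 voom with sample weights, DESeq2 size factors, other filters and thresholds and 2-group fits. A replicate block, offsets on exonic length (lowess span 0.3) and each library left out were further ones. Log2 CPM used a prior count of 1 and RPKM exonic lengths of the count table. Gene symbols matched 54723 identifiers. Library totals of 18362378 to 24452153 make 3 counts 0.123 to 0.165 CPM. An exact permutation of 2 against 2 cannot give p under 0.333, so none was run. The fit was tested on simulated data. The labels number the replicates, but deviations of same-numbered libraries from their group means correlated at r = -0.04, -0.06 and -0.01 across genes, so they were not treated as pairs. Named genes were the 10 members, the 3 genes nearest in profile to each called member, and up to 4 called genes of each list. Adam9, Adamts14, Cd68, Cdh5, Csf1r, Fap, Fn1, Rhbdf1, S100a4, Timp3, Vcan and Vim were added after their values were seen. Promoters of the members with the largest rise and fall, Adam12 and Adamts5, had no entry in the table used. The members and lists were chosen with earlier results of these data known.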

Additional observations from a re-analysis of the deposited data

How the results depend on the processing

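Adam12, Adamts2, Adamts5 and Adamts6 kept their direction against vehicle under every alternative run. With the filter that the study's methods give, 1 member was called in each comparison with vehicle in place of 4. This filter asks for 10 CPM in more than 3 samples, and Adamts2, Adamts5 and Adamts6 were then not tested. In all, 485 of 9518 tested genes were called with DMSO and 505 of 9518 with BI6727. The main fit called 874 and 908 of 14604. At an adjusted p below 0.05 with no fold minimum and the main filter, 3052 and 3216 of 14604 were called. Between BI6727 and DMSO, where edgeR called 0 genes, DESeq2 called 15, a filter of 10 counts in total 2, of 1 count in any sample 47, length offsets 11, voom 2, and an adjusted p below 0.05 with no fold minimum 2, and the cause was not tested. Members called there stayed at 0.

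With 1 library left out in turn (the group of 1 assumed to vary like the others), 2 to 5 members were called with DMSO against vehicle, 3 to 5 with BI6727 against vehicle and 0 between BI6727 and DMSO. Over all genes the counts were 293 to 1463, 339 to 1218 and 0 to 95, with 95 without DMSO replicate 1 and 38 without DMSO replicate 2. A DMSO library left alone brings no spread of its own, and the DMSO pair differed most. Counts from fits with a single DMSO library can therefore be too high. The members near 0 changed sign in some of the fits with 1 library left out. Between BI6727 and DMSO the log2 fold changes ran from -0.291 to 0.377 for Adam12, -0.0895 to 0.279 for Adam17, -0.321 to 0.213 for Adam19, -0.705 to 0.183 for Adamts12, -0.365 to 0.414 for Adamts4, -0.490 to 0.00686 for Adamts5 and -0.0948 to 0.555 for Adamts7. With DMSO against vehicle they ran from -0.367 to 0.167 for Adam19, -0.251 to 0.340 for Adamts1, -0.520 to 0.366 for Adamts12 and -0.556 to 0.0939 for Adamts7, and with BI6727 against vehicle from -0.0213 to 0.0200 for Adamts7.

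With the replicate number as a block, 4 members were called in each comparison with vehicle, 810 and 804 genes in all, and 0 between BI6727 and DMSO, and no call of a member changed. Values near 0 changed sign. Adamts4 between BI6727 and DMSO was 0.0188 with the block and 0.0323 with voom. Adamts7 with BI6727 against vehicle was 0.0013 with the block, 0.0024 with DESeq2 and with its size factors, 5.4e-05 with voom and 0.0503 with length offsets. Length offsets gave -0.0618 for Adam12 between BI6727 and DMSO, and 0.0226 for Adam19 and 0.15 for Adamts12 with DMSO against vehicle.

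Each group held 2 libraries, and in the DMSO group these differed by more than the other pairs. What part this had in the number of calls between BI6727 and DMSO was not tested.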
